A study of Sus scrofa with 4 samples.

Results

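The miR-23, miR-27 and miR-24 families come from paired miRNA clusters, here called the a cluster (miR-23a, miR-27a and miR-24) and the b cluster (miR-23b, miR-27b and miR-24). Their members were taken by name: every annotated pig miRNA numbered 23, 24 or 27, with any letter and arm, which gave 8 of 321 annotated miRNAs. In a further table of conserved miRNA sequences, 64 of 2791 rows carried the family name mir-23 (19 rows), mir-24 (21 rows) or mir-27 (24 rows). Of the 8 members, 3 come from the a cluster alone (miR-23a, miR-27a and miR-24-1-5p), 4 from the b cluster alone (miR-23b, miR-27b-3p, miR-27b-5p and miR-24-2-5p), and miR-24-3p is made from both.

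Small RNA was sequenced from the hippocampus of newborn wild-type piglets of the Rongchang breed, all from 1 litter of 8 animals of both sexes. The control group of 4 piglets received no injection, and the oxidative stress group of 4 was injected on days 3 and 4 of life with 200 mg of iron dextran, a form of iron given into muscle. Ventral and dorsal hippocampus were dissected apart. The extraction protocol says that tissue was mixed as a sample and does not state the number of piglets per pool. It was read here as 1 pool per region and treatment, which gave 4 libraries. These were the control libraries (ventral and dorsal) and the iron libraries (ventral and dorsal), and values for all 4 are given in that order. There was no replicate, the spread between piglets was not measured, and each ratio below compares 1 library with 1 library.

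A miRNA guides the Argonaute protein to messenger RNAs that pair with its seed, bases 2 to 8 from its 5′ end, and lowers their output. Each cluster is usually transcribed as 1 primary transcript, from which Drosha and Dicer cut separate hairpins. Levels of neighbours on 1 transcript can still differ by processing and decay. The 5p and 3p names give the arm of the hairpin, and usually 1 arm is kept while the other is degraded. In brain and vessels the families are known for roles in neuronal survival, glial differentiation and angiogenesis.

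The mature sequences are shown because the a and b copies can be told apart by few bases, which bears on every comparison of the clusters. They were read from the rows of the conserved table that list pig among their species, and capitals mark the seed.
miR-23a: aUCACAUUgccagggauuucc
miR-23b: aUCACAUUgccagggauuacca
miR-27a: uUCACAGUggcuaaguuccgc
miR-27b-3p: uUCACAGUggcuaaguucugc
miR-24-3p: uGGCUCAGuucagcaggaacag
miR-24-1-5p: gUGCCUACugagcugaaacacagu
miR-24-2-5p: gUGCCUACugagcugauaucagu
miR-27b-5p: aGAGCUUAgcugauuggugaaca

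The 8 sequences fell into 5 seed groups. Positions are counted from 1 at the 5′ end, and the a copy's base stands first. Over the 21 bases that could be compared, miR-23a and miR-23b differed by 1 substitution, U19A, and miR-27a and miR-27b-3p also by 1, C19U. Both pairs share their seed and their first 18 bases. The seeds of miR-23 and miR-27 differed from each other by U7G alone. miR-24-1-5p and miR-24-2-5p shared their first 16 bases. Compared by position without gaps, they differed at 6 of 23 positions (A17U, C19U, A20C, C21A, A22G and G23U). They are 24 and 23 bases long and both end in cagu, so C21A, A22G and G23U reflect a shift by 1 base. A read that stops before base 19 cannot be given to 1 copy of miR-23 or miR-27. The authors' annotated table holds fractions of reads for miR-27a and miR-27b-3p and whole reads for miR-23a and miR-23b, while their conserved table holds fractions for both families. The sources used here do not say how shared reads were divided, so the split between copies is less certain than their sum.

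The row for miR-24-2-5p does not name that pig miRNA and was matched by elimination, as the remaining row of this type that lists pig. In the RefSeq annotation of the pig assembly Sscrofa 11.1, used here only for the order of genes, MIR23A, MIR27A and MIR24-1 neighbour each other between C2H19orf57 and ZSWIM4. MIR24-2, MIR27B and MIR23B lie together inside C10H9orf3, with FANCC and FBP1 as the nearest other protein genes. Pig miR-24-1 thus belongs to the a cluster and miR-24-2 to the b cluster. The conserved table gives the pig miR-24-1-5p sequence together with human and mouse rows named miR-24-2-5p, so the numbers run the other way round in those species. Names are used here as in pig.

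The annotated table held 13839556, 12100980, 12299691 and 11396809 reads. The members took 3.69%, 3.59%, 4.44% and 4.08% of these. Levels are CPM, counts relative to library size, after TMM scaling, which sets libraries to a common size by the bulk of the miRNAs. A small RNA read spans the whole miRNA, so no scaling by length was needed. A count of 0 would allow up to 3 reads, or 0.207 to 0.282 CPM. Of the 8 members, 7 reached 10 CPM in at least 1 library and 1, miR-27b-5p, did not. The 7 are among 251 measured miRNAs.

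The clusters spanned a wide range of levels, with the 3p arm of miR-27b at the top and the passenger arms at the bottom. miR-27b-3p, a b cluster product known to target lipid and angiogenesis regulators, stood at 17944 and 17674 CPM in the control libraries (ventral, then dorsal) and at 24421 and 24635 CPM in the iron libraries. It was the 11th to 13th most abundant miRNA in each library, and both iron libraries lay above both control libraries. miR-24-3p, which either locus can make and which is known to restrain apoptosis and cell cycle genes, stood at 12505, 12319, 14024 and 13639 CPM. The highest library was 1.14 times the lowest, and at this scaling both iron libraries lay above both controls. As a share of annotated reads, iron dorsal (1.27%) lay below control ventral (1.31%).

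The middle of the range was held by 1 product of each cluster. miR-27a, the a cluster copy of miR-27, stood at 2228, 2574, 2777 and 2051 CPM. The iron ventral library was the highest and the iron dorsal library the lowest, so iron and control libraries overlapped. miR-23b, the b cluster copy of a family known to target glutaminase, stood at 1862, 1929, 2293 and 2544 CPM, and miR-23a, its a cluster copy, at 571, 623, 649 and 755 CPM. Both miR-23 copies were lowest in control ventral and highest in iron dorsal. In the other tail, miR-24-2-5p, the 5p arm made by the b cluster, stood at 109, 89.6, 99.4 and 61.1 CPM, with iron dorsal apart from the rest. miR-24-1-5p, the 5p arm of the a cluster, stood at 16.4, 16.5, 13.2 and 13.3 CPM, from 238, 204, 163 and 142 reads. Both iron libraries lay below both controls for that arm. miR-27b-5p, the arm opposite miR-27b-3p, stayed between 5.35 and 5.75 CPM on 57 to 81 reads.

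Over the 4 libraries the order was miR-27b-3p, miR-24-3p, miR-27a, miR-23b, miR-23a, miR-24-2-5p, miR-24-1-5p and miR-27b-5p. The ranges of neighbours in this order did not overlap, except those of miR-27a and miR-23b. miR-27a stood above miR-23b in 3 libraries and below it in iron dorsal.

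**Figure D1:**
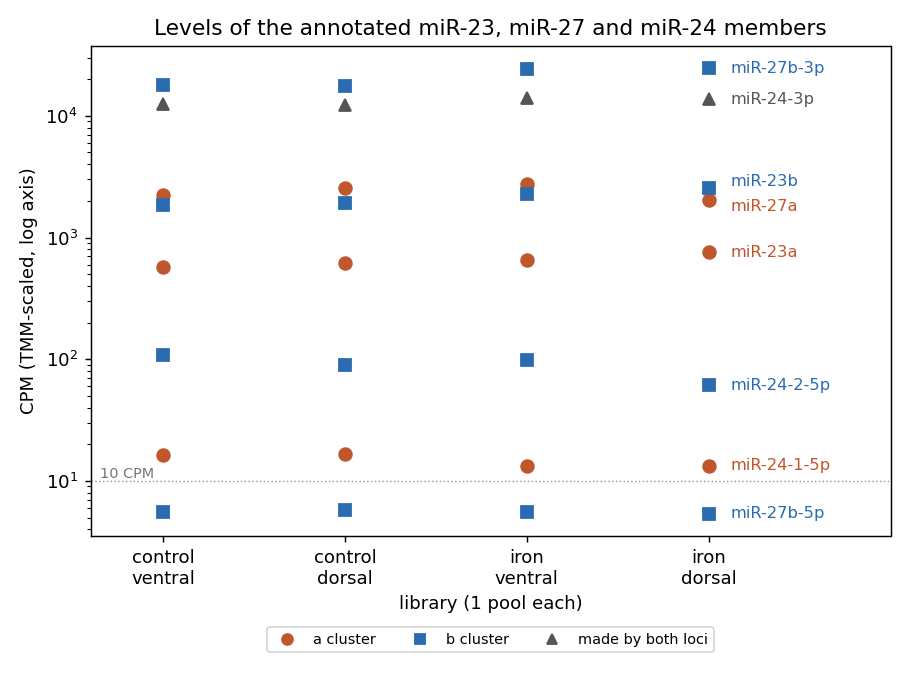
TMM-scaled CPM (log axis) of the 8 annotated members in each of the 4 libraries, 1 point per pooled library, with shape and colour giving the cluster. miR-27b-3p leads in every library, at 17674 to 24635 CPM, miR-27a drops below miR-23b in iron dorsal alone, and miR-27b-5p stays below the dotted line at 10 CPM.

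The comparison of iron with control asks which miRNAs differ under induced oxidative stress. In ventral hippocampus the 5 abundant members were all higher in the iron library, by 1.12 to 1.36-fold, and both 5p arms of miR-24 were lower. miR-27b-3p was 1.36 times its control level (95% counting interval 1.35 to 1.37), miR-27a 1.25 times (1.23 to 1.27) and miR-23b 1.23 times (1.21 to 1.25). miR-23a was 1.14 times its control level (1.10 to 1.17) and miR-24-3p 1.12 times (1.11 to 1.13). The passenger arms went the other way, miR-24-2-5p at 0.910 times control (0.844 to 0.981) and miR-24-1-5p at 0.805 times (0.655 to 0.987). For miR-27b-5p the ratio was 1.001 with an interval of 0.716 to 1.40, so no difference was detectable at its depth.

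These intervals are exact conditional binomial (Clopper-Pearson) intervals and cover counting error only, since each group is 1 library. They treat reads as independent molecules, which amplified reads are not, so they may be too narrow even for counting error. At these depths they are narrow, so intervals that miss 1 were common: 43% of the 251 measured miRNAs had one above 1 and 34.3% one below 1 in ventral hippocampus. Of the 7 measured members, 5 had one above and 2 below. Their median log2 ratio was 0.18, against 0.0018 over all measured miRNAs. No member reached a 2-fold difference, as 1.99% of the measured miRNAs did.

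In dorsal hippocampus miR-27a parted from the other abundant members. miR-27b-3p was 1.39 times its control level in the iron library (1.39 to 1.40) and miR-23b 1.32 times (1.30 to 1.34). miR-23a was 1.21 times (1.17 to 1.25) and miR-24-3p 1.11 times (1.10 to 1.12), close to their ventral ratios. miR-27a, in contrast, stood at 0.797 times its control level (0.783 to 0.811), although miR-23a from the same cluster was higher. miR-24-2-5p was lower still, at 0.682 times control (0.618 to 0.752), and miR-24-1-5p stood at 0.807 times with an interval that reached 1 (0.647 to 1.004). Of the 7 measured members, 4 had an interval above 1 and 2 below 1, against 37.8% and 39.8% of all measured miRNAs. The members' median log2 ratio was 0.15, against -0.02 over all. No member reached 2-fold, as 0.797% of the measured miRNAs did.

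**Figure D2:**
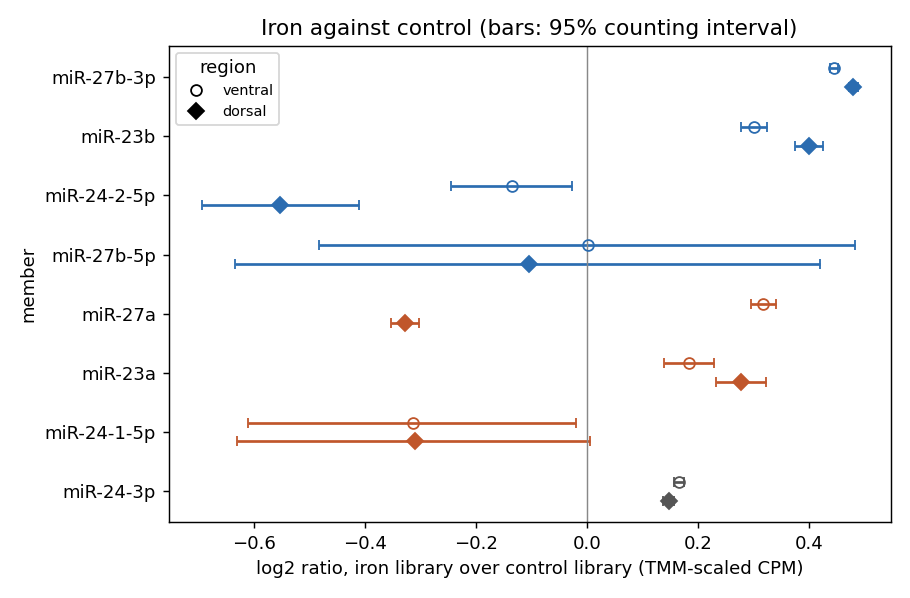
Log2 ratio of the iron over the control library for each member, open circles for ventral and filled diamonds for dorsal hippocampus, with 95% counting intervals and no replicate error. Among the measured members only miR-27a is on opposite sides of 0, at 0.32 in ventral and -0.33 in dorsal hippocampus. Some miRNAs outside the members, such as miR-128, were so too, and their share was not counted.

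Within the control pair, dorsal and ventral hippocampus differed little in these miRNAs. miR-27a was 1.16 times higher in dorsal (1.14 to 1.17), miR-23a 1.09 times (1.06 to 1.12) and miR-23b 1.04 times (1.02 to 1.05). miR-24-2-5p stood at 0.821 times its ventral level (0.760 to 0.887). The abundant miR-27b-3p and miR-24-3p were both at 0.985 times. Of the 7 measured members, 3 had an interval above 1 and 3 below, against 39% and 36.3% of all measured miRNAs, and none of them reached 2-fold, as 1.99% of all did.

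Within the iron pair the gap between regions was wider for some members. miR-24-2-5p in dorsal stood at 0.615 times its ventral level (0.559 to 0.677) and miR-27a at 0.738 times (0.726 to 0.751). Both copies of miR-23 were higher in dorsal, miR-23a at 1.16 times (1.127 to 1.1995) and miR-23b at 1.11 times (1.09 to 1.13). miR-27b-3p stood at 1.01 times and miR-24-3p at 0.973 times. Here 3 of the 7 had an interval above 1 and 3 below, against 40.2% and 37.5% of all measured miRNAs. None of the 7 reached 2-fold, as 0.797% of all did.

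A test over all 4 libraries was possible only in a model of region plus treatment, with 1 residual degree of freedom. The regions share their piglets, so its p-values measure the spread between these libraries and not between piglets. edgeR also borrows spread from all measured miRNAs, as 8.87 prior degrees of freedom. Opposite directions in the 2 regions, as for miR-27a, count as residual spread in this model. edgeR's quasi-likelihood test called 0 of 251 miRNAs (0%) for iron and 0 (0%) for region at an adjusted p of 0.05. Without adjustment 11 and 8 miRNAs had a p under 0.05, DESeq2 called 1 for iron and 0 for region, and limma called 0 for both. The strongest member for iron was miR-27b-3p, with a log2 difference of 0.46 (SE 0.16), an unadjusted edgeR p of 0.0182 and an adjusted p of 0.914. It was higher with iron in both regions, but the difference did not hold after adjustment. miR-23b followed with 0.35 (SE 0.18), an unadjusted edgeR p of 0.0859 and an adjusted p of 0.929. For miR-27a the ventral and dorsal differences cancelled in this model, which gave -0.0050 (SE 0.21). For region, miR-24-2-5p had the largest member difference, -0.49 (SE 0.25), with an unadjusted edgeR p of 0.0833 and an adjusted p of 0.996.

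Within a library the clusters can be compared with no scaling between libraries. The b copy made up most of the reads in all 3 pairs that can be compared. For miR-23 the b share was 76.5% in control ventral, 75.6% in control dorsal (95% Clopper-Pearson interval 75.1% to 76.1%), 77.9% in iron ventral (77.5% to 78.4%) and 77.1% in iron dorsal. That is 3.10 to 3.53 reads of miR-23b per read of miR-23a. In the conserved rows that list pig there were only 1.74 to 1.99, with iron dorsal the lowest. Over all conserved sequences that tell the copies apart there were 3.37, 3.22, 3.67 and 3.46, with iron dorsal above control dorsal. Both the size of the miR-23 share and its dorsal direction thus depend on which conserved rows are counted. For miR-27 the b share was 89.0% in control ventral, 87.3% in control dorsal (87.2% to 87.4%), 89.8% in iron ventral and 92.3% in iron dorsal (92.2% to 92.4%). That is 8.05, 6.87, 8.79 and 12.0 reads of miR-27b-3p per read of miR-27a, with iron dorsal apart from the other libraries.

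In dorsal hippocampus the b-to-a ratio of miR-27 was 1.75 times higher in the iron than in the control library (log interval 1.72 to 1.78), and in ventral hippocampus 1.09 times (1.07 to 1.11). For miR-23 the same ratios of ratios were 1.09 (1.05 to 1.13) and 1.08 (1.05 to 1.12). In the annotated table the proportion of the miR-23 copies thus moved less than that of the miR-27 copies. The miR-24 5p arms also came mostly from the b cluster, at 86.9%, 84.4%, 88.3% (86.4% to 89.9%) and 82.1% (79.2% to 84.7%) in the same order of libraries. Their b share was lowest in iron dorsal, the library where that of miR-27 was highest. In the conserved rows that list pig it was also lowest there, at 84.6% against 86.0% in control dorsal. Over all conserved sequences it was 87.8% in iron dorsal and 87.5% in control dorsal. Between the iron libraries the b-to-a ratio of the 5p arms in dorsal was 0.610 times that in ventral (0.478 to 0.779), while between iron and control dorsal its interval held 1 (0.846, 0.668 to 1.07).

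**Figure D3:**
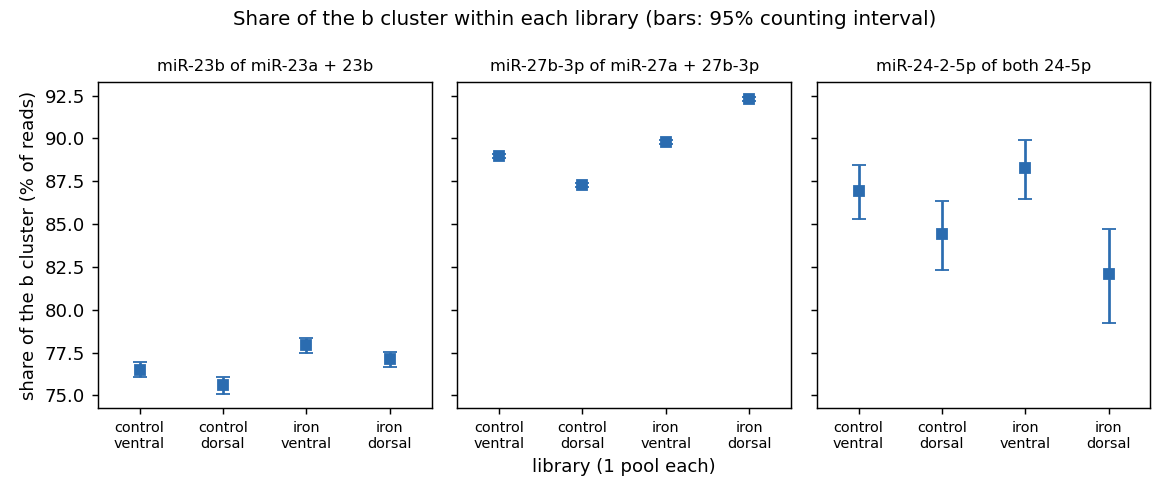
Share of reads from the b cluster copy (percent, axis not starting at 0) for miR-23, miR-27 and the miR-24 5p arms in the 4 libraries, with 95% Clopper-Pearson counting intervals. The miR-27 share runs from 87.3% in control dorsal to 92.3% in iron dorsal, while the miR-23 share stays between 75.6% and 77.9%.

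Neighbours in a cluster did not keep a fixed proportion. In the a cluster there were 3.90 and 4.13 reads of miR-27a per read of miR-23a in the control libraries, and 4.28 and 2.72 in the iron libraries. The iron dorsal proportion was 0.658 times that of control dorsal (0.634 to 0.681), while iron and control ventral differed by 1.10 times (1.06 to 1.14). In the b cluster the matching counts were 9.64, 9.16, 10.7 and 9.69 reads of miR-27b-3p per read of miR-23b. Iron and control dorsal differed there by 1.06 times (1.04 to 1.08), so the a cluster pair was the one that moved in dorsal hippocampus.

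Within the b cluster, the main arm of miR-27b and the 5p arm of its neighbour miR-24-2 diverged further. There were 164 and 197 reads of miR-27b-3p per read of miR-24-2-5p in the control libraries, and 246 and 403 in the iron libraries. In dorsal hippocampus this proportion was 2.04 times higher with iron (1.85 to 2.25), and in ventral 1.50 times higher (1.39 to 1.61). Both sequences come from the same cluster.

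The share of miR-24 reads from the 5p arms also differed between libraries. The 5p arms of both loci together made up 0.994% of miR-24 reads in control ventral (0.949% to 1.04%), 0.854% in control dorsal (0.809% to 0.902%), 0.796% in iron ventral (0.755% to 0.839%) and 0.543% in iron dorsal (0.506% to 0.582%). Each iron library was below the control library of its region. Per 1000 reads of miR-24-3p there were 8.73, 7.28, 7.08 and 4.48 reads of miR-24-2-5p, and 1.31, 1.34, 0.943 and 0.978 reads of miR-24-1-5p. The b arm was 0.616 times its control proportion in dorsal (0.559 to 0.679) and 0.812 times in ventral (0.753 to 0.875). The a arm was 0.729 times (0.588 to 0.903) and 0.718 times (0.588 to 0.876). Since both loci make miR-24-3p, these proportions do not give the use of arms at either locus. For miR-27b the 5p arm took 0.0217% to 0.0325% of its reads, lower in both iron libraries, although the ventral ratio's interval held 1 (0.736, 0.534 to 1.01; dorsal 0.668, 0.471 to 0.946).

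**Figure D4:**
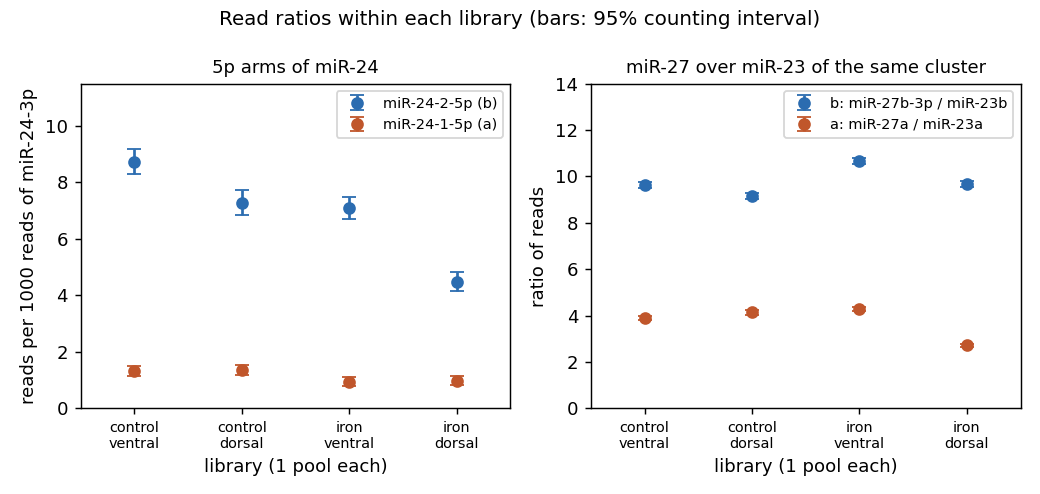
Ratios of reads within each library, with 95% counting intervals: reads of each miR-24 5p arm per 1000 reads of miR-24-3p (left) and reads of miR-27 per read of miR-23 of the same cluster (right). In iron dorsal the b arm of miR-24 is at 4.48 per 1000 and the a cluster ratio at 2.72, both the lowest of the 4 libraries.

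Summed over the members that belong to 1 locus and are the main arm, the b cluster (miR-23b and miR-27b-3p) stood at 19805, 19603, 26714 and 27179 CPM and the a cluster (miR-23a and miR-27a) at 2800, 3196, 3426 and 2805 CPM. The b cluster sum was higher in both iron libraries, 1.35 times in ventral and 1.39 times in dorsal. The a cluster sum was 1.22 times higher with iron in ventral (1.21 to 1.24) and 0.878 times its control level in dorsal (0.865 to 0.891). The 2 products of the a cluster did not share this dorsal direction, which came from miR-27a.

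Summed over both copies, miR-27 followed the b copy. miR-27a and miR-27b-3p together stood at 20172, 20248, 27198 and 26686 CPM, 1.35 times higher with iron in ventral (1.34 to 1.36) and 1.32 times in dorsal (1.31 to 1.33). The lower miR-27a in iron dorsal was small beside the higher miR-27b-3p. Both miR-23 copies together stood at 2433, 2551, 2942 and 3298 CPM, 1.21 and 1.29 times higher with iron.

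miR-128, a neuron-enriched miRNA, has a seed that overlaps that of miR-27, moved by 1 base, and is shown for that overlap.
miR-27b-3p: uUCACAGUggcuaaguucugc
miR-128: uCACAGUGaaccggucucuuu
miR-128 stood at 11446, 17261, 14615 and 12740 CPM. Unlike the miR-27 sum it was highest in control dorsal. The miR-27 to miR-128 proportion was 1.79 times higher in iron than in control dorsal (1.77 to 1.80) and 1.06 times in ventral (1.05 to 1.06). Other conserved rows with a member's seed were rare. ola-miR-24c, with the miR-24-3p seed, had 10.5, 7.5, 12 and 10 reads, and hsa-miR-23c, with the miR-23 seed, had 2, 4, 2 and 0 reads. Family mir-590, whose seed is that of miR-27b-5p moved by 1 base, had 28, 43, 17 and 19 reads, and rows of mir-221, mir-216 and mir-11 had at most 4 reads in a library.

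Next to the a cluster in the pig annotation lie MIR181C and MIR181D, members of another family. miR-181c stood at 1210, 1447, 1192 and 943 CPM, and in dorsal hippocampus the iron library was at 0.652 times control (0.636 to 0.668). miR-181d-5p stood at 1441, 1919, 1980 and 1839 CPM. The lowest miR-181c library was iron dorsal, as for miR-27a, while for miR-181d-5p it was control ventral.

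By the Euclidean distance between mean-centred log2 CPM profiles over the 4 libraries, among 157 other miRNAs at 100 CPM or more in every library, the summed a cluster was closest to miR-151-3p (distance 0.0741), miR-151-5p (0.0936) and miR-503 (0.128). The median distance was 0.367. miR-151-3p stood at 2722, 3116, 3137 and 2644 CPM. The summed b cluster was closest to miR-95 (0.107), miR-199b-5p (0.166) and miR-450b-5p (0.207), with a median distance of 0.498. miR-95 stood at 284, 269, 357 and 399 CPM, higher in both iron libraries. With 4 points per profile this is a description only.

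In the conserved table the same reads are matched to miRNAs of many species, so it is a second count of the same libraries and not a replicate. Scaled by the sum of that table, family mir-27 stood at 16483, 16777, 21662 and 18753 CPM, mir-24 at 8443, 8147, 8998 and 8066, and mir-23 at 2392, 2463, 2789 and 2919. With iron, mir-27 was 1.31 times higher in ventral and 1.12 times in dorsal, and mir-23 1.17 and 1.18 times. mir-24 was 1.07 times its control level in ventral and 0.990 times in dorsal, and with TMM scaling over families the latter turned to 1.08 times.

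Rows were also classed as a or b by the bases that tell the copies apart. miR-27a of this table was at 0.693 times its control level in iron dorsal (0.680 to 0.706) and 1.21 times in iron ventral (1.19 to 1.23). miR-27b-3p was at 1.19 times in dorsal and 1.34 times in ventral. The opposite directions of miR-27a in the 2 regions were thus present in this count too. miR-24-2-5p was at 0.613 times control in dorsal (0.553 to 0.680) and 0.874 times in ventral (0.809 to 0.945). miR-24-1-5p was at 0.601 times in dorsal (0.453 to 0.793) and 0.778 times in ventral (0.604 to 0.997), so in this count the a arm was as low as the b arm in iron dorsal. The table also holds passenger arms that are not in the annotated one: miR-23b-5p had 71, 58, 74 and 40 reads, and miR-27a-5p 36, 21, 17 and 11 reads. Both were fewest in iron dorsal, but at these depths the intervals of iron over control dorsal held 1. The ratios were 0.738 for miR-23b-5p (0.480 to 1.12) and 0.560 for miR-27a-5p (0.244 to 1.22).

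The most abundant conserved rows differ in length, mostly at the 3′ end, and are shown for that reason. The 24-base row of mir-27 also has 1 more base at its 5′ end, so its capitals mark the same letters as in the other mir-27 rows, not its own bases 2 to 8.
mir-23, 22 bases: aUCACAUUgccagggauuacca
mir-23, 23 bases: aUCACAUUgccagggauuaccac
mir-23, 24 bases: aUCACAUUgccagggauuaccacc
mir-24, 20 bases: uGGCUCAGuucagcaggaac
mir-24, 22 bases: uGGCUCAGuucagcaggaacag
mir-24, 23 bases: uGGCUCAGuucagcaggaacagg
mir-27, 21 bases: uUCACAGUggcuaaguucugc
mir-27, 22 bases: uUCACAGUggcuaaguucugca
mir-27, 24 bases: guUCACAGUggcuaaguucugcac
The 3 most abundant rows of mir-23 are all miR-23b and those of mir-27 are all miR-27b-3p. The 23-base miR-23b row led its family, at 567, 620, 667 and 622 CPM. The 22-base miR-24-3p row led at 3304, 3309, 3536 and 2873 CPM, and the 21-base miR-27b-3p row at 4724, 4724, 6340 and 5606 CPM. Reads were shared between such rows by the authors' counting, since the rows hold fractions, so these are not counts of end variants.

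Markers of cell types in the tissue moved with some members, and in these pools fewer cells of a type and less RNA per cell cannot be told apart. Of the oligodendrocyte list, 2 of 3 members were measured: miR-219b-3p stood at 9284, 10506, 12604 and 7976 CPM and miR-338 at 979, 996, 1302 and 836 CPM. Both were highest in iron ventral and lowest in iron dorsal, the same order of libraries as miR-27a. Their median log2 ratio of iron over control was 0.43 in ventral, with 2 of 2 intervals above 1. In dorsal it was -0.33, with 2 of 2 below. The third, miR-219a, was at 0.690 to 0.972 CPM. miR-151-3p, which is on none of the lists, had the same order of libraries too. Over all measured miRNAs, 43% of intervals were above 1 and 34.3% below in ventral, against 37.8% and 39.8% in dorsal. These shares also serve as background for the interval counts of the other lists. The part of the oligodendrocyte list in the miR-27a difference was not tested.

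The neuron-enriched list, led by miR-9 and miR-124a, summed to 266032, 246088, 251170 and 237160 CPM, with all 8 members measured. The labelled brain tissue thus carried its defining markers. The glia-enriched list, led by miR-26a and miR-29a, summed to 30366, 34285, 32166 and 35263 CPM with 4 of 5 members annotated. The vascular list, led by miR-143-3p and miR-126-3p, is relevant because the families act in vessels. It summed to 16024, 21937, 17044 and 18871 CPM, highest in control dorsal. That peak came mostly from miR-143-3p, at 9720, 14800, 10243 and 11542 CPM. miR-126-3p, at 4311, 4815, 4621 and 5028 CPM, was highest in iron dorsal. For iron in dorsal, 2 of the 6 measured vascular members had an interval above 1 and 3 below. None of these sums followed the order of the b cluster. miR-29a by itself, at 2855, 2734, 2951 and 3556 CPM, had the same order of libraries as the b cluster. miR-29b and miR-29c of the same list were lower with iron in both regions. Their log2 ratios were -0.55 and -0.09 in ventral, and -0.26 and -0.39 in dorsal. In each region 2 of the 4 measured glia-enriched members had an interval above 1 and 2 below. The part of miR-29a in the b cluster differences was not tested.

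Smaller lists mark other tissues. The epithelial list, led by miR-182 and miR-183, summed to 457 CPM in control ventral and 127 to 153 in the other 3 libraries, with 4 of 8 members annotated. The control ventral library therefore stands apart in these markers, and their part in the ventral ratios above was not tested. No iron comparison in ventral hippocampus can be made without that library, while the dorsal ratios do not use it. The immune list, led by miR-146b and miR-142-5p, summed to 1489 CPM in control ventral and 1825 to 1946 in the others. That gap came from miR-146b, at 380, 937, 875 and 1019 CPM, while miR-142-5p, at 653, 588, 586 and 542 CPM, was highest in control ventral, and for iron in ventral 1 of the 6 measured members had an interval above 1 and 4 below. The muscle list, led by miR-1 and miR-133a-3p, summed to 169 CPM there and 223 to 276 in the others. The erythroid list, led by miR-451 and miR-144, summed to 1075, 837, 1019 and 861 CPM, higher in the ventral libraries. Of the choroid plexus list miR-204 was annotated, at 253, 199, 178 and 164 CPM, highest in control ventral.

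The choice of scaling shifted all ratios together. Scaling by total counts lowered the log2 ratio of iron over control dorsal by 0.13 for every miRNA and that of iron dorsal over iron ventral by 0.10, and the authors' RPM lowered the first by 0.11. Under each of the scalings tried on the annotated table, miR-27b-3p, miR-23b and miR-23a stayed higher with iron in both regions. miR-27a stayed higher in ventral and lower in dorsal. miR-24-3p stayed higher in ventral, but its dorsal ratio fell to 1.01 with total counts and 1.03 with the authors' RPM. In the conserved table, scaled by its sum, miR-24-3p in dorsal was at 0.995 times control (0.986 to 1.004). The small dorsal-ventral difference of miR-27b-3p turned with total counts, with the authors' RPM and without merging of repeated rows. In the conserved table, iron dorsal was at 0.888 times iron ventral for this miRNA (0.882 to 0.893).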

How the data were processed

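Small RNA of 4 pooled hippocampus libraries was sequenced. The submitters' processing notes name the read trimmer cutadapt 1.2.2 and the pig builds Sscrofa 10.2 and susScr 3. The sources used here do not name the aligner or the database release. The authors deposited reads per miRNA and library, per the file headers, as estimated counts, since many are fractions. The authors also deposited RPM values, per the file headers, which served as an alternative scaling. Reads were rounded to whole numbers. Repeated rows (equal precursors, reads within 0.1% in every library) were merged, which took 326 annotated rows to 321. Libraries were TMM-scaled (edgeR 4.0.16), and miRNAs at 10 CPM or more in at least 1 library counted as measured. Depth was 11396809 to 13839556 annotated reads.

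Ratios between libraries carry exact conditional binomial 95% intervals, shares Clopper-Pearson intervals, and ratios of ratios log (Woolf) intervals. For iron and region, edgeR's quasi-likelihood test was run over all 251 measured miRNAs with Benjamini-Hochberg adjustment, and with DESeq2 1.42.0 and limma 3.58.1 as alternatives. Other alternatives were the scaling, the minimum CPM, the merging, the rounding and the conserved table. The script was tested on simulated data. The table of predicted miRNAs was not used, which leaves 8 columns of per-sample values unused.

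All 8 members were named. In the conserved table the family sums and the 3 most abundant sequences of each family were named, and from each cell type list the 2 members with the highest mean CPM. miRNAs with a member's seed, or one moved by 1 base, were named. Members, lists and rules were chosen with earlier results of these data known. The classing of all conserved rows into a and b, and the use of miR-24 arms, were chosen after seeing the data.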

Additional observations from a re-analysis of the deposited data

Results flagged for a closer look

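miR-27a moved in opposite directions with iron in the 2 regions. It was higher in the iron than in the control library in ventral hippocampus and lower in dorsal, and the dorsal minus the ventral log2 ratio was -0.65. Equivalently, miR-27a was higher in dorsal than in ventral hippocampus in the control libraries and lower in the iron libraries, and the iron minus the control log2 ratio was -0.65. Among the 251 measured miRNAs, its iron over control ratio was the 27th highest in ventral and the 204th in dorsal. Some miRNAs outside the members also had opposite directions, such as miR-128 (log2 ratio 0.35 in ventral and -0.44 in dorsal) and miR-219b-3p (0.44 and -0.40). The share of all measured miRNAs that did so was not counted. Each group here is 1 library, so the difference was not tested.

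miR-27b-3p was lower in dorsal than in ventral hippocampus in the control libraries and higher in the iron libraries, by so little that the iron minus the control log2 ratio was 0.034. This difference was not tested either, and the direction within the iron pair turned with 3 of the alternatives below. In the conserved table, scaled by its sum, dorsal miR-27b-3p was at 0.999 times ventral in the control pair (0.993 to 1.006). In the iron pair it was at 0.888 times (0.882 to 0.893).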

How the results depend on the processing

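No paired analysis by replicate number was possible because the labels give no such numbers. The model of region plus treatment already compares iron with control within each region, and leaving out a library would leave it no residual degree of freedom. The calls over all miRNAs depended on the test's settings. For iron, 0 calls became 2 with DESeq2 size factors, 2 with total count scaling, 1 with the DESeq2 Wald test, 3 with no filter and 2 with rows not merged. For region, 0 calls became 3, 3, 4 and 3 with DESeq2 size factors, total count scaling, no filter and rows not merged. Among members, the log2 difference of miR-27a for iron turned to 0.011 and that of miR-27b-3p for region to 0.0035 with DESeq2 size factors. That of miR-24-1-5p for region turned to -0.058 with total counts and -0.034 with rows not merged.

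Iron dorsal over iron ventral for miR-27b-3p turned to 0.940 with total counts, 0.958 with the authors' RPM and 0.992 with rows not merged. For miR-24-1-5p the same ratio, 1.01 with an interval that held 1, went to 0.940, 0.958 and 0.992 under these settings, and its ratio of control dorsal over control ventral went to 0.980 with total counts and 0.962 with rows not merged. Control dorsal over control ventral turned to 1.01 for both miR-27b-3p and miR-24-3p with the authors' RPM, and to 0.990 for miR-23b with rows not merged. The count of members with an interval below 1 became 1 for iron in ventral (DESeq2 size factors, or a minimum of 100 CPM) and 1 for region in control (DESeq2 size factors, or the authors' RPM, which put 5 above 1).

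The a cluster sum, in the order iron in ventral, iron in dorsal, region in control and region in iron, had ratios of 1.17, 0.804, 1.11 and 0.763 with total counts. It was 1.24 for iron in ventral with DESeq2 size factors, and 0.815, 1.17 and 0.778 in the last 3 with the authors' RPM. The b cluster sum had 1.29, 1.27, 0.964 and 0.948 with total counts, the last of which reversed. It had 1.37, 1.40 and 0.99955 in the first 3 with DESeq2 size factors, and 1.29, 1.01 and 0.966 in the last 3 with the authors' RPM, of which both region values reversed.

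In the order of the report (control ventral and dorsal, then iron ventral and dorsal), the b share of miR-23 in conserved rows that list pig was 65.4%, 65.4%, 66.6% and 63.5%, and that of miR-27 was 90.1%, 88.5%, 91.1% and 93.4%. Over all conserved sequences that tell the copies apart, chosen after seeing the data, miR-23 had 77.1%, 76.3%, 78.6% and 77.6%, miR-27 had 87.5%, 85.7%, 88.6% and 91.1%, and the miR-24 5p arms had 90.2%, 87.5%, 91.2% and 87.8%. The 5p share of miR-24 was there 1.40%, 1.19%, 1.13% and 0.733%. In each of these counts the b share of miR-27 was highest in iron dorsal, and the share of miR-24 reads from the 5p arms was lowest there. The b share among the miR-24 5p arms was lowest in control dorsal over all conserved sequences, not in iron dorsal as in the annotated table. In the rows that list pig it was 89.2%, 86.0%, 89.7% and 84.6%, lowest in iron dorsal. With TMM scaling over families, mir-23 had ratios of 1.23, 1.29, 1.05 and 1.11, mir-24 of 1.12, 1.08, 0.984 and 0.948, and mir-27 of 1.38, 1.22, 1.04 and 0.916, in the order of the cluster sums, and mir-24 in dorsal reversed. In the rows that list pig, the miR-23 share was lower in iron than in control dorsal, the reverse of the annotated table. The cause of the changes was not tested. Depth limits the miR-24-1-5p and miR-27b-5p values, which rest on 142 to 238 and 57 to 81 reads.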
